A study of Homo sapiens with 6 samples.

Results

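The genes described here are 44 genes of the lysosome: 17 hydrolases, 3 soluble proteins of the lumen that are not hydrolases themselves, 5 proteins of the limiting membrane, 16 subunits of the proton pump (V-ATPase) and 3 transcription factors of the MiT/TFE family. They were taken by symbol from a list drawn up from lysosomal function, with earlier results of these data known. All 44 were found among the 61517 genes of the count table. RNA selected by its poly-A tail was sequenced in 6 libraries of THP-1, a human monocytic leukaemia cell line that had been differentiated into macrophages. Both groups received lipopolysaccharide (LPS) and ATP, a combination that drives the inflammatory cell death called pyroptosis. The 3 ruxolitinib libraries came from cells that also received ruxolitinib, an inhibitor of the kinases JAK1 and JAK2, and the 3 control libraries from cells that did not. The comparison asks which lysosomal transcripts differed with JAK inhibition in stimulated macrophages. The sources used here do not name the drug dose, the times or what drove differentiation. Unstimulated cells were not analysed here. All cells belong to 1 cell line. The labels number the batches 1 to 3, and each batch holds 1 library of each group. Whether replicate libraries stem from separate cultures is not stated by the labels. The p-values therefore cover only the variation among these 6 samples, and that variation may be technical.

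Lysosomes are acidic organelles in which hydrolases break down proteins, lipids and glycans that reach them by endocytosis, phagocytosis or autophagy. The acid is supplied by the V-ATPase, whose V1 sector hydrolyses ATP in the cytosol and turns a rotor that moves protons through the membrane-embedded V0 sector. Many lysosomal genes carry a short palindromic E-box in their promoters that MiT/TFE factors bind, and macrophages, as professional phagocytes, hold large amounts of these enzymes.

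Total counts ran from 17757595 to 24533979 per library, and 3 counts in a library correspond to 0.122 to 0.169 CPM (counts scaled to a common library total). All 10 macrophage and monocyte markers examined were detected in the table, with a summed level of 2515 to 2550 CPM in the control libraries and 1610 to 1707 CPM in the ruxolitinib libraries. This marker sum was lower in every ruxolitinib library, and its part in the results below was not tested. The markers did not all move together. LYZ was the only one that rose, with a log2 fold change of 0.20 (edgeR adjusted p 0.0362). The others fell unequally, from -0.19 for TYROBP to -1.15 for CSF1R. Of the defining markers of other cells, 3 of 4 T cell genes, 1 of 3 epithelial genes and 2 of 3 erythroid genes were at 0 in all libraries. The summed T cell level was at most 0.0563 CPM, the B cell level at most 0.525 CPM and the fibroblast level at most 1.59 CPM. In bulk RNA of this kind, fewer cells of a type and less RNA per cell cannot be told apart.

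To show the E-box in the members themselves, promoter windows of RefSeq on GRCh38.p14 were searched for CACGTG and for its extended form TCACGTGA. Each window runs from 250 bases before to 50 bases after a gene's start. Both words read the same on either strand, and every TCACGTGA contains a CACGTG. A window was matched for 31 of the 44 members. The stretches below lie upstream of the annotated start and were chosen because they hold the extended word, or, for NEU1, the short one; the word is in capitals and 20 flanking bases stand on each side.
MCOLN1, plus strand, chr19:7522562-7522609: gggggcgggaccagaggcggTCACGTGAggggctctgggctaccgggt
LAMP1, plus strand, chr13:113297190-113297237: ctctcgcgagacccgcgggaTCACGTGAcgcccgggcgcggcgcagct
GALNS, minus strand, chr16:88857095-88857142: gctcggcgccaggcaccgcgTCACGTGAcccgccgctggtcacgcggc
GAA, plus strand, chr17:80101484-80101531: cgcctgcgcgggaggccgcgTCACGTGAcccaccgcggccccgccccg
ATP6V1G1, plus strand, chr9:114587690-114587737: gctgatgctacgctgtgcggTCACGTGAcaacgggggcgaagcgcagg
NEU1, minus strand, chr6:31862922-31862967: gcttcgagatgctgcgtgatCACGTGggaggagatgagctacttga

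TCACGTGA was present in 6 of the 31 members with a window (19.4%), against 321 of 27305 genes overall (1.18%). The 6 were GALNS and GAA among the hydrolases, LAMP1 and MCOLN1 in the membrane, and the V-ATPase subunits ATP6V0D1 and ATP6V1G1. The shorter CACGTG was present in 9 of the 31, or 29%, against 8.77% of all genes. A match is a description of letters and not a bound site. By response to ruxolitinib, the extended word was present in 2 of the 8 members with a window that fell, in 0 of the 2 that rose and in 4 of the 21 that did not pass the test. The word was thus found in members of 3 functional classes, and both in members that fell and in members that did not pass. Words known from cytokine-activated factors were searched as well. TTCNNNGAA, searched on both strands, lay in the windows of ATP6V1F and CD63 (6.45% of the 31, against 9.38% of all genes). AAANNGAAA, searched likewise, lay in those of CD63 and NPC1 (6.45%, against 12.6%). The absence of a match says only that these letters are not in this window.

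With ruxolitinib, 14 of the 44 lysosomal genes fell, 3 rose and 27 did not pass the test (edgeR's quasi-likelihood test, adjusted p under 0.05 over the 14051 genes tested). All 44 passed the filter on low counts. Over all tested genes 29.7% were called, 16.1% lower and 13.6% higher, whereas 31.8% of the 44 members fell and 6.82% rose. The members were chosen with earlier results of these data known, so the shares here and below are given as descriptions. The median log2 fold change of ruxolitinib over control was -0.11 over the members and -0.01 over all genes tested, and 5 of the 44 (11.4%) differed by a factor of 1.5 or more in either direction, beside 14.1% of all genes tested. The ruxolitinib libraries lay entirely below the control libraries for 21 members and entirely above them for 6, which is 27 of 44 (61.4%) beside 44.2% of all genes tested. Within the batches, 22 members were lower with ruxolitinib in each of the 3 batches and 6 were higher in each. That is 63.6% of the members with the same sign in every batch, beside 54.1% of all genes tested. These included all 14 that fell and all 3 that rose.

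**Figure D1:**
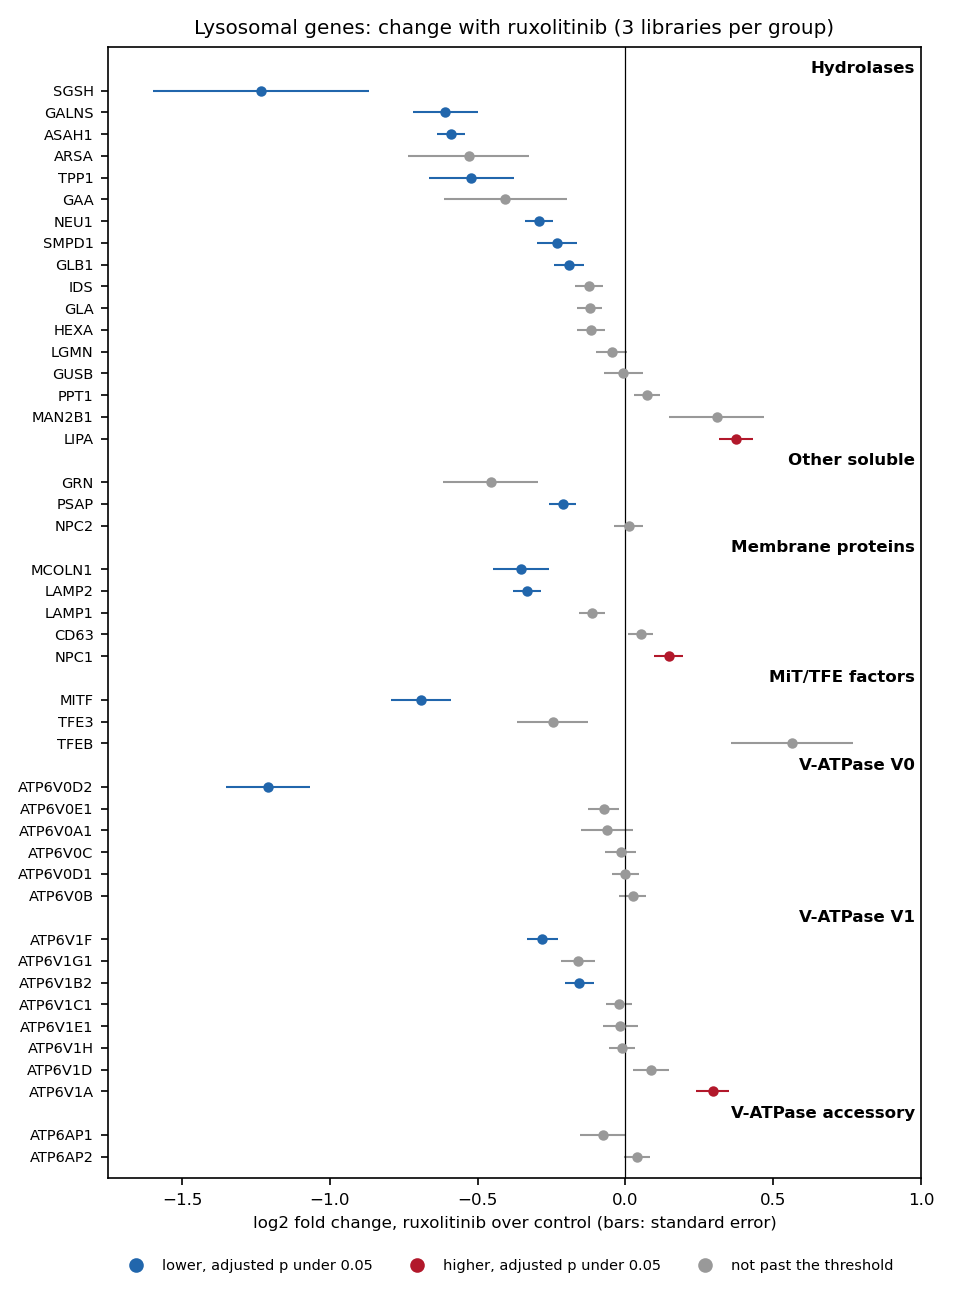
Log2 fold change (ruxolitinib over control) of the 44 lysosomal genes by functional class; points are edgeR estimates from 3 libraries per group, bars are standard errors, blue is lower and red higher at an adjusted p under 0.05. SGSH at -1.23 and ATP6V0D2 at -1.21 lie farthest to the left, while 12 of the 16 V-ATPase genes are grey and lie close to 0.

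The classes differed in their counts. Over all genes tested, 16.1% fell and 13.6% rose. Of the 20 soluble proteins, 8 fell (40.0%) and 1 rose (5.0%), with a median log2 fold change of -0.20. Of the 5 membrane proteins, 2 fell and 1 rose, with a median of -0.11. Both membrane shares were above those of all genes tested, but they rest on few genes. Of the 16 V-ATPase genes, 3 fell (18.8%) and 1 rose (6.25%), with a median of -0.02. The V-ATPase median and the share that fell were near those of all genes tested, and the share that rose was lower. In either direction, 25.0% of the V-ATPase genes were called, beside 29.7% of all genes tested. No test compared the classes with each other. Summed over the class, the soluble proteins took 7211 ± 80.2 CPM in control and 6565 ± 159 CPM with ruxolitinib (mean ± SD, n = 3 in each group, here and below). The V-ATPase genes took 3391 ± 79.0 CPM in control and 3305 ± 54.3 CPM with ruxolitinib. The gene with the largest difference in the first sum was PSAP. The sums are dominated by a few abundant transcripts and are given as descriptions.

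Among the hydrolases, 7 of 17 fell, 1 rose and 9 did not pass, beside 16.1% lower and 13.6% higher over all genes tested. ASAH1 encodes acid ceramidase, which splits ceramide into sphingosine and a fatty acid. Its level was 491, 455 and 477 CPM in control libraries 1 to 3 and 309, 328 and 309 CPM in ruxolitinib libraries 1 to 3. The groups were far apart, with every ruxolitinib library below every control library. ASAH1 fell by 33.6%, a log2 fold change of -0.59 ± 0.05 (SE, here and below) with an edgeR adjusted p of 2.09e-06, the smallest among the hydrolases. The gene lies at chromosome 8, 18055992 to 18084998 (GENCODE 29 on GRCh38, here and below).

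GALNS and SGSH, sulfatases that remove sulfate groups from glycosaminoglycans, both fell from low levels. GALNS (chromosome 16, 88813734 to 88856970) was at 15.3, 16.7 and 13.7 CPM in control and 10.7, 8.95 and 10.4 CPM with ruxolitinib. Its groups did not overlap, and the log2 fold change was -0.61 ± 0.11 (edgeR adjusted p 0.00124). SGSH had 39, 90 and 45 raw counts in control and 10, 27 and 25 with ruxolitinib. These correspond to 2.20, 3.59 and 1.96 CPM against 0.525, 1.45 and 1.34 CPM, again without overlap but with a wide spread within each group. The log2 fold change of SGSH was -1.23 ± 0.36 (edgeR adjusted p 0.0282). The SGSH call was lost without control replicate 2 (adjusted p 0.057), ruxolitinib replicate 1 (0.0737) or ruxolitinib replicate 3 (0.0543). Another sulfatase of the list, ARSA, which acts on sulfatide, did not pass: its range was 6.31 to 10.04 CPM in control and 4.67 to 6.34 CPM with ruxolitinib, the groups overlapped at their edges, and the log2 fold change was -0.53 ± 0.20 (adjusted p 0.0793). ARSA passed without control replicate 1 (0.044) and with no filter on low counts (0.0031), but not with DESeq2 or limma-voom.

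Several further hydrolases fell by less. NEU1, the lysosomal sialidase, was at 301, 306 and 288 CPM in control and 245, 233 and 253 CPM with ruxolitinib. The libraries of the 2 groups were well separated. NEU1 (chromosome 6, 31857659 to 31862906) fell by 0.29 ± 0.05 on the log2 scale (edgeR adjusted p 0.000556). GLB1, the beta-galactosidase, was at 94.3, 87.5 and 91.9 CPM in control and 80.3, 76.7 and 82.6 CPM with ruxolitinib. GLB1 fell by 0.19 ± 0.05 on the log2 scale (edgeR adjusted p 0.0149), a small change whose groups did not overlap. With batch as a block its adjusted p was 0.0519, and the call was also lost without control replicate 1 (0.112), control replicate 3 (0.0895) or ruxolitinib replicate 1 (0.0633). SMPD1, the acid sphingomyelinase that produces ceramide, was at 26.0, 28.0 and 25.8 CPM in control and 23.3, 22.3 and 22.4 CPM with ruxolitinib. SMPD1 fell by 0.23 ± 0.07 on the log2 scale (edgeR adjusted p 0.023). That call sat near the threshold: it was 0.0795 with batch as a block, 0.108 with DESeq2, and between 0.054 and 0.0665 whichever single library was left out.

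TPP1, a tripeptidyl peptidase, was at 343, 333 and 336 CPM in control and 247, 185 and 273 CPM with ruxolitinib. The control libraries were tight and the ruxolitinib libraries spread widely, all below the controls. TPP1 fell by 0.52 ± 0.14 on the log2 scale (edgeR adjusted p 0.0464). The call was lost with upper-quartile factors (0.0557), without ruxolitinib replicate 1 (0.0877) and without control replicate 1, 2 or 3 (0.118, 0.141 and 0.12). LIPA moved the other way. It encodes lysosomal acid lipase, which frees cholesterol and fatty acids from internalised lipoproteins. LIPA was at 137, 134 and 137 CPM in control and 173, 192 and 165 CPM with ruxolitinib, so every ruxolitinib library was above the controls. LIPA rose by 0.38 ± 0.06 on the log2 scale (edgeR adjusted p 0.000371). The LIPA gene model (chromosome 10, 89213569 to 89414557) shares 200 exon bases with genes on the opposite strand, AL353751.1 and the interferon-induced IFIT2. The sources used here do not state strand handling, so reads in the shared bases cannot be assigned to either. IFIT2, looked up for this overlap after its values were seen, moved opposite to LIPA, with a log2 fold change of -3.53 ± 0.15 (edgeR adjusted p 4.76e-09).

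The other hydrolases did not pass. GLA, HEXA and IDS, which degrade glycolipids, gangliosides and glycosaminoglycans, each had a log2 fold change of -0.12, with edgeR adjusted p of 0.0521, 0.0819 and 0.0739. GLA passed without control replicate 2 (0.0471) or ruxolitinib replicate 2 (0.0442), and IDS passed without control replicate 2 (0.03). With library totals alone as the scaling, GLA, HEXA and IDS passed (0.00842, 0.0279 and 0.0207). GUSB, LGMN and PPT1 had log2 fold changes of -0.01, -0.05 and 0.07. PPT1, a thioesterase that removes palmitate from proteins, was the most abundant hydrolase per exon length, at 369 CPM per kilobase in control and 389 with ruxolitinib. However, 1189 of its 5088 exon bases are shared with CAP1 on the opposite strand, and reads there cannot be assigned to either gene. GAA, the acid alpha-glucosidase that degrades glycogen, was at 9.52, 13.8 and 8.52 CPM in control and 8.24, 6.43 and 9.45 CPM with ruxolitinib, so the groups overlapped (log2 fold change -0.41 ± 0.21, adjusted p 0.184). GAA passed with no filter on low counts (0.0103), but not with DESeq2 or limma-voom. MAN2B1, the lysosomal alpha-mannosidase, was at 118, 163 and 129 CPM in control and 170, 146 and 192 CPM with ruxolitinib. Its groups overlapped through control replicate 2 and ruxolitinib replicate 2 (log2 fold change 0.31 ± 0.16, adjusted p 0.224), and it passed without control replicate 2 (0.0333).

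The 3 soluble proteins that are not hydrolases themselves diverged. PSAP encodes prosaposin, the precursor of the saposins that present lipids to the hydrolases, and was the most abundant member per exon length, at 810 CPM per kilobase in control and 700 with ruxolitinib. It was at 2620, 2585 and 2667 CPM in control and 2252, 2183 and 2365 CPM with ruxolitinib. No libraries of the groups overlapped, and PSAP fell by 0.21 ± 0.05 on the log2 scale (edgeR adjusted p 0.00441). Its adjusted p was 0.0545 without control replicate 3. GRN, which encodes progranulin, was at 251, 286 and 236 CPM in control and 187, 152 and 224 CPM with ruxolitinib. All ruxolitinib libraries of GRN lay below the controls, but the spread was wide and the gene did not pass (log2 fold change -0.46 ± 0.16, adjusted p 0.0931). GRN passed without ruxolitinib replicate 3 (0.018), with DESeq2 (0.041) and with limma-voom (0.0168). NPC2, the soluble cholesterol carrier, was at 239, 219 and 228 CPM in control and 231, 240 and 221 CPM with ruxolitinib, with overlapping groups and a log2 fold change of 0.01 ± 0.05 (adjusted p 0.897).

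**Figure D2:**
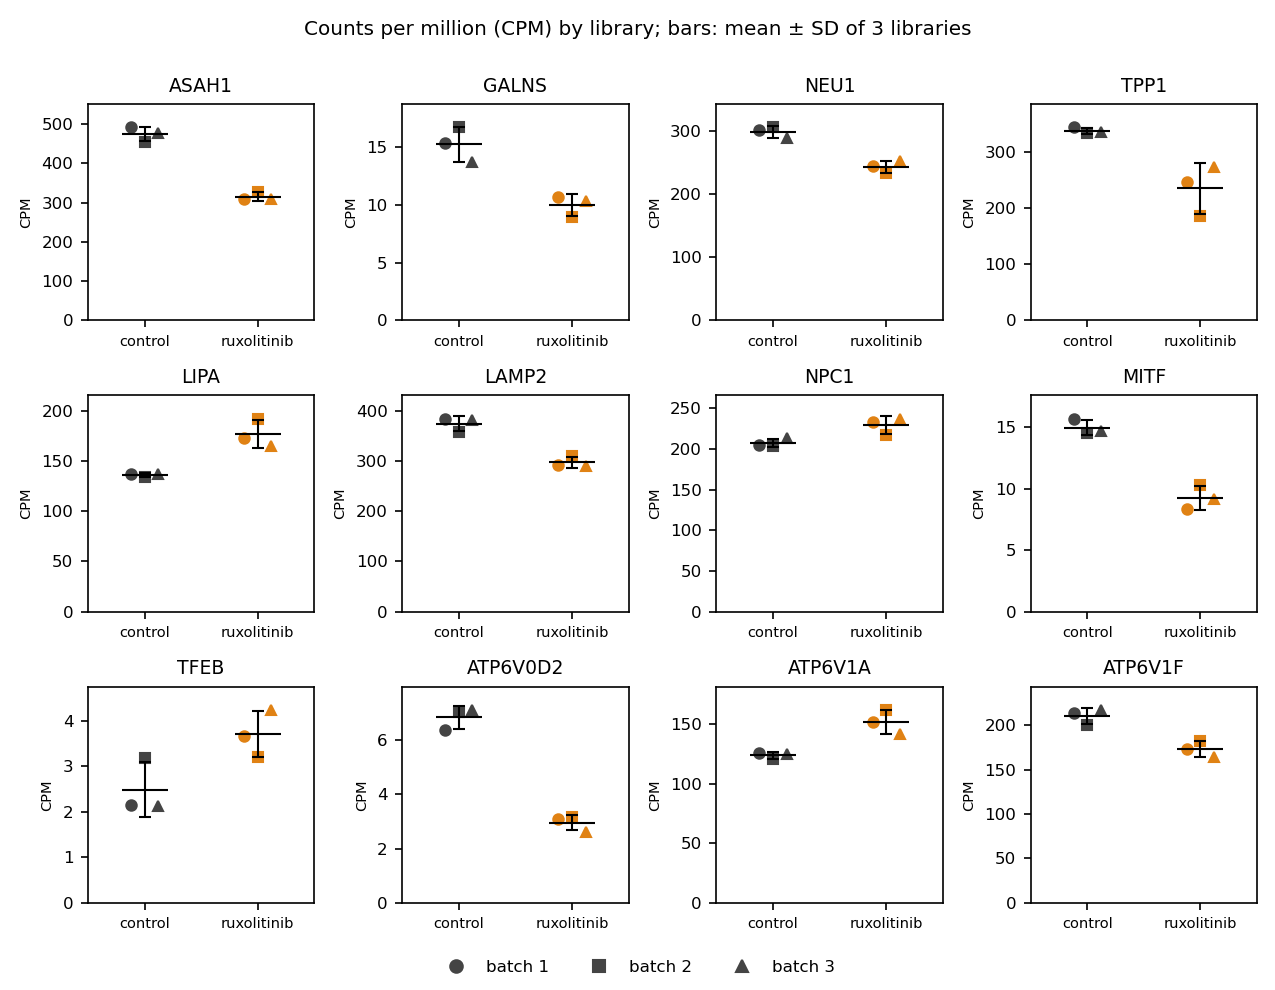
CPM of 12 lysosomal genes in each of the 6 libraries, one panel per gene with a vertical axis from 0; symbols mark batches 1 to 3, and bars are the mean ± SD of 3 libraries. ASAH1, GALNS, NEU1, TPP1, LAMP2, MITF, ATP6V0D2 and ATP6V1F lie lower in every ruxolitinib library, LIPA, NPC1, ATP6V1A and TFEB lie higher in every one, and TFEB did not pass the test.

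Of the membrane proteins, LAMP2 and MCOLN1 fell. LAMP2, a heavily glycosylated coat protein that also serves in chaperone-mediated autophagy, was at 385, 358 and 382 CPM in control and 293, 310 and 291 CPM with ruxolitinib. The gap between the groups was larger than the spread within either. LAMP2 (chromosome X, 120427827 to 120469365) fell by 0.33 ± 0.05 on the log2 scale (edgeR adjusted p 0.00023). MCOLN1, the cation channel TRPML1 that releases lysosomal calcium and whose promoter stretches hold the extended E-box word, was at 21.6, 19.2 and 18.4 CPM in control and 14.5, 14.5 and 17.2 CPM with ruxolitinib. Its ruxolitinib libraries all lay below the controls, ruxolitinib replicate 3 by the narrowest margin. MCOLN1 (chromosome 19, 7522626 to 7534009) fell by 0.35 ± 0.10 on the log2 scale (edgeR adjusted p 0.0155). In the fit with batch as a block the adjusted p of MCOLN1 was 0.0507. Leaving out control replicate 1 gave 0.0774 and leaving out ruxolitinib replicate 1 gave 0.0809.

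LAMP1, the second major coat protein, did not pass despite groups that did not overlap: 291, 294 and 296 CPM in control and 273, 261 and 282 CPM with ruxolitinib (log2 fold change -0.11 ± 0.04, edgeR adjusted p 0.0789). CD63, a tetraspanin of lysosomes and exosomes, was at 1065, 1019 and 1060 CPM in control and 1080, 1102 and 1078 CPM with ruxolitinib (0.05 ± 0.04, adjusted p 0.391). The LAMP1 value passed with library totals alone (0.0247). NPC1, the transporter that moves cholesterol out of the lysosome, was at 204, 204 and 213 CPM in control and 233, 217 and 237 CPM with ruxolitinib. All ruxolitinib libraries of NPC1 were above the controls, and it rose by 0.15 ± 0.05 on the log2 scale (edgeR adjusted p 0.0379). This small rise was not called with batch as a block (adjusted p 0.112) or with library totals alone as the scaling (0.103). It was also not called without control replicate 1, 2 or 3 (0.137, 0.096 and 0.0535) or ruxolitinib replicate 1 or 3 (0.148 and 0.103). LIPA and NPC1, which act in sequence on cholesterol from lipoproteins, both rose, while NPC2, which passes cholesterol to NPC1, had a log2 fold change near 0.

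The MiT/TFE factors, which bind the E-box shown above, did not move together. MITF was at 15.7, 14.6 and 14.7 CPM in control and 8.35, 10.3 and 9.18 CPM with ruxolitinib. The control libraries were close to each other and every ruxolitinib library lay well below them. MITF (chromosome 3, 69739435 to 69968337) fell by 0.69 ± 0.10 on the log2 scale (edgeR adjusted p 0.00032). TFEB had 38, 80 and 49 raw counts in control and 70, 60 and 79 with ruxolitinib, or 2.14, 3.19 and 2.13 CPM against 3.68, 3.22 and 4.24 CPM. On this TMM-scaled measure the groups touched without overlapping, since control replicate 2 and ruxolitinib replicate 2 were nearly level. TFEB did not pass (log2 fold change 0.56 ± 0.21, edgeR adjusted p 0.0584), but it passed without control replicate 2 (0.00937), with median-ratio factors (0.0406), with upper-quartile factors (0.0443) and with no filter on low counts (0.0419). TFE3 was at 77.7, 104 and 79.8 CPM in control and 75.6, 67.4 and 77.6 CPM with ruxolitinib. All TFE3 values with ruxolitinib lay below the controls by a narrow margin, and the log2 fold change of -0.25 ± 0.12 did not pass (adjusted p 0.184). With no filter on low counts TFE3 passed (edgeR adjusted p 0.000973). The filter had not removed TFE3, and that fit took in 30330 genes. TFE3 did not pass with DESeq2 or limma-voom.

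Per exon length, TFE3 was the most abundant of the 3 in control, at 20.3 CPM per kilobase, ahead of MITF at 2.09 and TFEB at 0.440. With ruxolitinib the same order held at 17.2, 1.29 and 0.657 CPM per kilobase. TFEC, a further gene of the family that is not among the 44, was as abundant as TFE3 in control at 20.6 CPM per kilobase and stood at 14.2 with ruxolitinib. TFEC was at 181, 178 and 176 CPM in control and 122, 124 and 121 CPM with ruxolitinib, a tight separation. It fell by 0.54 ± 0.04 on the log2 scale (edgeR adjusted p 1.99e-06).

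In the membrane sector V0, 1 of 6 fell and 5 did not pass, a share near the 16.1% of all genes tested that fell. ATP6V0D2, an isoform of the d subunit best known from osteoclasts and macrophages, was at 6.37, 7.05 and 7.12 CPM in control and 3.10, 3.16 and 2.63 CPM with ruxolitinib. The raw counts behind these were 113, 177 and 164 against 59, 59 and 49. The groups were clearly apart, and ATP6V0D2 fell by 1.21 ± 0.14 on the log2 scale (edgeR adjusted p 5.5e-05). Its ubiquitous counterpart ATP6V0D1 was at 109, 106 and 108 CPM in control and 110, 106 and 106 CPM with ruxolitinib, with overlapping groups and an edgeR adjusted p of 0.995. Per exon length the 2 isoforms stood at 13.1 CPM per kilobase for ATP6V0D1 and 2.28 for ATP6V0D2 in control, and at 0.985 for ATP6V0D2 with ruxolitinib.

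The other V0 genes also overlapped between groups. ATP6V0E1, a small subunit of V0, was at 302, 270 and 286 CPM in control and 264, 287 and 263 CPM with ruxolitinib (log2 fold change -0.07 ± 0.05, edgeR adjusted p 0.338). ATP6V0A1, an isoform of the subunit that forms the proton path, had -0.06 ± 0.09 (0.638). ATP6V0B and ATP6V0C, which encode rotor subunits, had 0.02 ± 0.04 (0.728) and -0.02 ± 0.05 (0.857). In order of level per exon length in control, V0 ran from ATP6V0E1 at 176 CPM per kilobase through ATP6V0B at 92.8, ATP6V0C at 59.9 and ATP6V0D1 at 13.1 to ATP6V0A1 at 2.90 and ATP6V0D2 at 2.28. Lengths are those of the merged exons of all isoforms, so a gene with long, little-used exons is placed too low by this measure. Near-identical copies add uncertainty for ATP6V0C and ATP6V0E1, each with 4 named pseudogenes.

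**Figure D3:**
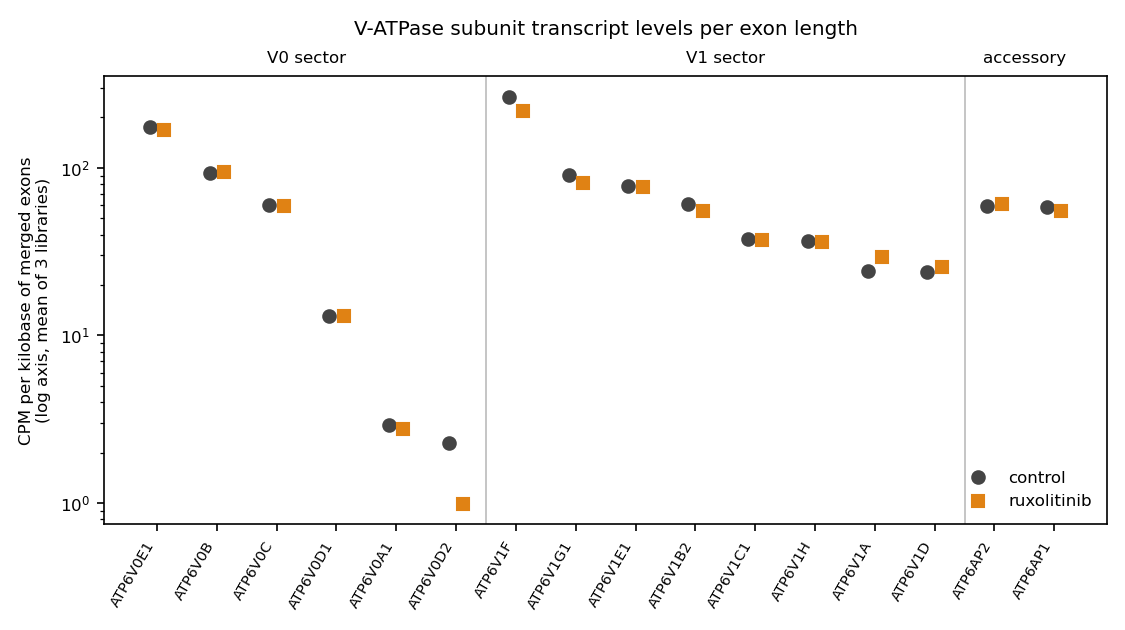
Level of each of the 16 V-ATPase genes per exon length (CPM per kilobase of merged exons, log axis), as means of 3 control libraries (circles) and 3 ruxolitinib libraries (squares), by sector. The pairs of symbols nearly coincide for most genes, and ATP6V0D2, at 2.28 in control and 0.985 with ruxolitinib, is the pair farthest apart.

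Of the 8 genes of the catalytic sector V1, 2 fell, 1 rose and 5 were not called, beside 16.1% lower and 13.6% higher over all genes tested. The 2 subunits that form the ATP-hydrolysing ring moved in opposite directions. ATP6V1A, the catalytic A subunit, was at 125, 120 and 125 CPM in control and 152, 162 and 141 CPM with ruxolitinib. Every ruxolitinib library was above the controls, and ATP6V1A (chromosome 3, 113747019 to 113812056) rose by 0.30 ± 0.05 on the log2 scale (edgeR adjusted p 0.00153). ATP6V1B2, the B subunit, was at 479, 456 and 500 CPM in control and 435, 444 and 410 CPM with ruxolitinib. All ruxolitinib values of ATP6V1B2 lay below the controls, and it fell by 0.16 ± 0.05 on the log2 scale (edgeR adjusted p 0.0334). That call was lost when batch was a block (0.129), with DESeq2 (0.0717), with median-ratio factors (0.0824) and with upper-quartile factors (0.0914). It was also lost without control replicate 1 or 3 (0.148 and 0.241) or ruxolitinib replicate 1 or 3 (0.105 and 0.111). The ATP6V1A call was kept in all of the 19 alternative settings run.

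ATP6V1F, a subunit of the central stalk, was at 214, 200 and 217 CPM in control and 173, 182 and 164 CPM with ruxolitinib. The groups did not overlap, and ATP6V1F fell by 0.28 ± 0.05 on the log2 scale (edgeR adjusted p 0.00176). Per exon length it was the most abundant V-ATPase transcript of both groups, at 267 CPM per kilobase in control and 219 with ruxolitinib. However, 187 of its 789 exon bases are shared with KCP on the opposite strand, and reads there cannot be assigned to either gene. ATP6V1G1, a subunit of the peripheral stalk, was at 125, 115 and 114 CPM in control and 106, 111 and 99.2 CPM with ruxolitinib. It did not pass (log2 fold change -0.16 ± 0.06, edgeR adjusted p 0.053), although it passed without control replicate 2 (0.0341) or ruxolitinib replicate 2 (0.0218), with library totals alone (0.0159) and with no filter on low counts (0.0435). ATP6V1C1, ATP6V1D, ATP6V1E1 and ATP6V1H had log2 fold changes of -0.02, 0.09, -0.02 and -0.01. The accessory proteins, which assist assembly and sorting of the pump, did not pass either. ATP6AP1 was at 289, 298 and 271 CPM in control and 275, 240 and 300 CPM with ruxolitinib (-0.08 ± 0.08, adjusted p 0.498). ATP6AP2 was at 588, 552 and 554 CPM in control and 578, 582 and 581 CPM with ruxolitinib (0.04 ± 0.04, adjusted p 0.534).

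Other genes of the same pathways, were counted from lists of known function that were drawn up with earlier results of these data known. Their shares are read beside the 16.1% lower and 13.6% higher of all genes tested. Of 29 other lysosomal hydrolases and activators that were tested, 9 fell (31.0%), 4 rose (13.8%, near the share of all genes) and 16 did not pass, with a median log2 fold change of -0.09. ARSB, a sulfatase of glycosaminoglycans, was at 78.8, 74.0 and 74.8 CPM in control and 49.4, 45.3 and 52.1 CPM with ruxolitinib, and it fell by 0.63 ± 0.06 on the log2 scale (edgeR adjusted p 1.01e-05). GM2A, an activator of ganglioside breakdown, fell by 0.42. ACP5, a tartrate-resistant phosphatase known like ATP6V0D2 from osteoclasts and named after its values were seen, fell by 1.99 ± 0.30 on the log2 scale from a mean of 2.37 CPM (edgeR adjusted p 0.00039). The 4 that rose, also named after their values were seen, were PCYOX1, a prenylcysteine oxidase, PRCP, a carboxypeptidase, SIAE, a sialic acid esterase, and GGH, a gamma-glutamyl hydrolase, by 0.44, 0.43, 0.33 and 0.27 on the log2 scale (edgeR adjusted p 0.000688, 0.000285, 0.0194 and 0.0131). SIAE lost the call with batch as a block (0.0501) and without control replicate 3 or ruxolitinib replicate 1 or 2 (0.0603, 0.0811 and 0.0702), and GGH lost it without control replicate 1 (0.0543). Of 22 other lysosomal membrane proteins, 7 fell (31.8%), 1 rose (4.55%) and 14 did not pass. SCARB2, a lysosomal membrane protein that also acts as a sorting receptor, fell by 0.50 ± 0.05 on the log2 scale (edgeR adjusted p 1.27e-05). SLC17A5 and CTNS, exporters of sialic acid and cystine, fell by 0.31 and 0.89. LAMP3 was the 1 that rose, by 0.65 ± 0.08 (adjusted p 7.04e-05).

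Of 23 tested genes that deliver the enzymes, 8 fell (34.8%, beside 16.1% of all genes tested), 0 rose and 15 did not pass, with a median of -0.11. M6PR, the cation-dependent mannose 6-phosphate receptor, was at 197, 190 and 202 CPM in control and 158, 157 and 154 CPM with ruxolitinib, and it fell by 0.33 ± 0.04 on the log2 scale (edgeR adjusted p 0.000153). AP1S2, GGA2 and SORT1, an adaptor subunit, an adaptor and a sorting receptor of the trans-Golgi, fell by 0.49, 0.38 and 0.85. Of 10 tested V-ATPase assembly and regulatory factors, 2 fell (20%, near the 16.1% of all genes tested) and 8 did not pass. NCOA7, which binds the V-ATPase, was at 74.8, 64.5 and 72.8 CPM in control and 13.9, 13.6 and 13.5 CPM with ruxolitinib. The groups were very far apart, and NCOA7 fell by 2.37 ± 0.07 on the log2 scale (edgeR adjusted p 1.94e-10). Its relative OXR1 fell by 0.39 ± 0.05 (adjusted p 9.75e-05). Of 6 further V-ATPase subunits tested, 1 rose (16.7%, near the 13.6% of all genes tested). It was ATP6V1B1, which went from 0.344 ± 0.210 to 1.14 ± 0.456 CPM (edgeR adjusted p 0.0175). At that level the subunit rests on few reads, and its adjusted p was 0.0852 without ruxolitinib replicate 3. Of 23 genes in nutrient control of the MiT/TFE factors, a list that includes TFEC, 6 fell, 1 rose and 16 were not called. By direction, 26.1% fell, beside 16.1% of all genes tested, and 4.35% rose, beside 13.6%. The share called in either direction, 30.4%, was close to the 29.7% of all genes tested. FNIP2, a folliculin partner, fell by 0.65 ± 0.05 on the log2 scale (edgeR adjusted p 1.46e-06). The gene that rose was LAMTOR5, a Ragulator subunit (0.17 ± 0.06, adjusted p 0.0368), whose adjusted p was 0.116 with batch as a block. It also lost the call without control replicate 2 or 3 (0.122 and 0.079) or ruxolitinib replicate 1 or 2 (0.101 and 0.0998).

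GC content moved with the libraries. Over the 44 members, the deviation of a library from its group mean had a Spearman correlation with transcript GC content of 0.541 in control replicate 2, 0.695 in ruxolitinib replicate 3 and -0.618 in ruxolitinib replicate 2, a description across genes that share each library. Control replicates 1 and 3 had -0.428 and -0.558, and ruxolitinib replicate 1 had 0.156. The log2 fold change itself had -0.131 over the 44. Several members rich in GC had unequal ratios between batches. The log2 ratio of GAA was -0.21, -1.10 and 0.15 in batches 1, 2 and 3, that of ARSA was -0.43, -1.04 and -0.02, and that of MAN2B1 was 0.53, -0.16 and 0.58. The ratio of TFEB was 0.78, 0.01 and 1.00. ASAH1, the member of lowest GC content, had ratios of -0.67, -0.47 and -0.63. With GC-dependent offsets in the fit, an alternative added after the data had been seen, 16 of the 17 called members kept their call and TPP1 lost it (adjusted p 0.0512). In that fit ARSA, GAA, GRN, TFE3 and ATP6V1G1 fell and MAN2B1 and TFEB rose, with log2 fold changes of -0.66, -0.50, -0.54, -0.27, -0.15, 0.29 and 0.57. The part of GC content in the unadjusted values of single genes was not tested further.

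**Figure D4:**
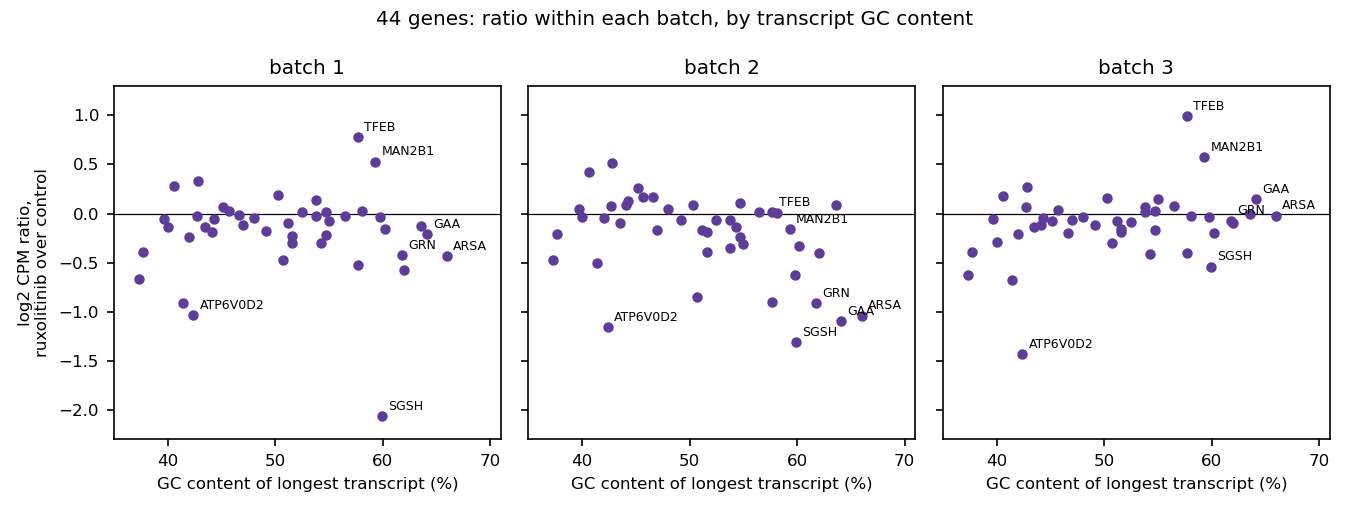
Log2 CPM ratio of ruxolitinib over control within each batch (vertical axis) against transcript GC content in percent (horizontal axis) for the 44 lysosomal genes, one panel per batch. The Spearman correlation across the genes was -0.034 in batch 1, -0.393 in batch 2 and 0.271 in batch 3, and GC-rich genes such as GAA, ARSA and TFEB change place between the panels.

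Across the 19 alternative settings, 8 of the 17 calls held in every one: the falls of ASAH1, GALNS, NEU1, LAMP2, MITF and ATP6V0D2 and the rises of LIPA and ATP6V1A. The other 9 lost the call in at least 1 setting, and none of the 17 changed sign. The setting that lost the most calls, 9, left out the batch 1 pair: ATP6V1F then had an adjusted p of 0.0692 and PSAP of 0.148.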

How the data were processed

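Poly-A RNA was sequenced in 6 libraries, 3 per group, grouped by sample title. The deposited table holds raw counts of reads for each gene, as whole numbers with no normalization. The genome build was hg38, per the submitters' processing notes, and the sources used here do not name the aligner, counter, annotation release or strand mode. Exon lengths, coordinates and overlaps came from GENCODE 29, which held 58340 of the 61517 gene identifiers; 17 of the 44 members share exon bases with a gene on the opposite strand and 7 have named pseudogenes, and their counts carry that uncertainty. Genes were kept by filterByExpr (minimum count 10, minimum total 15), scaled by TMM and tested with edgeR 4.0.16 (glmQLFit and glmQLFTest) in R 4.3.3, with Benjamini-Hochberg adjustment over all 14051 genes and a threshold of 0.05. Every adjusted p comes from this test unless another is named. The scripts were tested on simulated data.

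Alternatives were other scalings and filters, DESeq2 1.42.0, limma 3.58.1 (voom), batch as a block, and leaving out libraries or batch pairs. The shared batch numbers come from the labels. Deviations of same-batch libraries from their group means correlated at -0.03, -0.27 and -0.15. Pairing thus comes only from the label. The drug's name is spelled otherwise in the treatment field than in the title, and its columns in the table lack the plus sign of the sample titles. The members and lists were chosen with earlier results of these data known. Full values were given for the members of smallest adjusted p in each role (up to 6 hydrolases, 4 genes of V0 and 4 of V1, and all of the smaller roles) and for members moving against their role. From each pathway list up to 4 genes of smallest adjusted p were named, except that some results are not reported here; values of further genes were added after they were seen.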

Additional observations from a re-analysis of the deposited data

How the results depend on the processing

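Of the 27 members that did not pass, 12 passed in at least 1 of the 19 settings, and 11 near 0 changed sign in at least 1. With batch as a replicate block, 10 members fell and 2 rose, 12 of the 17 calls were kept and none was gained; the membrane proteins then gave 1 lower and 0 higher. Without the batch 1 pair, 1983 genes were called over all and 6 members fell (3 soluble, 1 membrane, 1 V-ATPase and MITF), with 0 membrane rises. Without the batch 2 pair, 5 members rose (among them 2 soluble, 1 MiT/TFE) and 5 V-ATPase genes fell. Without the batch 3 pair, 0 membrane proteins rose, as with library totals alone. GC offsets, with or without the replicate block, gave 5 members higher (among them 2 soluble, 1 MiT/TFE) and 2 MiT/TFE lower, and with the block 1 V-ATPase gene lower. The MiT/TFE class had 1 higher with median-ratio factors, upper-quartile factors and no filter, and 2 lower with no filter. Leaving out single libraries gave 8 to 15 members lower, 4 to 8 soluble lower and 1 to 2 higher, 1 to 2 membrane lower and 0 to 1 higher, and 0 to 1 MiT/TFE higher. The causes of these shifts were not tested.

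Sign changes touched genes not called by edgeR. By setting, the log2 fold changes were as follows. Upper-quartile factors gave ATP6V0C 0.019, ATP6V0D1 0.035, ATP6V1C1 0.014, ATP6V1E1 0.018, ATP6V1H 0.023 and GUSB 0.029. Library totals gave ATP6V0B -0.012 and NPC2 -0.025. Median-ratio factors gave ATP6V0D1 0.011 and GUSB 0.005, as did DESeq2, and no filter gave ATP6V0D1 0.001. GC offsets gave ATP6V1E1 0.009, ATP6V1H 0.017 and GUSB 0.022, and with the replicate block 0.009, 0.017 and 0.02. Without the batch 1 pair ATP6V0C was 0.036, ATP6V1H 0.002 and GUSB 0.001. Without the batch 2 pair ATP6AP1 was 0.037, ATP6V0A1 0.071, ATP6V1D -0.006, GUSB 0.021 and NPC2 -0.049. Without the batch 3 pair ATP6V0B was -0.002, ATP6V0D1 0.015, ATP6V1E1 0.076 and ATP6V1H 0.003. Leaving out single libraries gave ATP6AP1 -0.152 to 0.006, ATP6V0A1 -0.121 to 0.037, ATP6V0C -0.061 to 0.033, ATP6V0D1 -0.017 to 0.019, ATP6V1E1 -0.074 to 0.049, ATP6V1H -0.048 to 0.016, GUSB -0.051 to 0.053 and NPC2 -0.026 to 0.053. GC offsets were chosen after seeing the data. Where a group keeps 2 libraries, its spread is pooled with the other group. Depth limits SGSH, TFEB and ATP6V1B1, which rest on few reads.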
